A study of Mus musculus with 8 samples.

Results

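Protein arginine methyltransferases (PRMTs) move methyl groups from S-adenosylmethionine to arginines of histones, splicing proteins and ribosomal proteins. Type I members (Prmt1, Prmt2, Prmt3, Carm1 and Prmt6) make asymmetric dimethylarginine, the type II members Prmt5 and Prmt9 make symmetric dimethylarginine, and Prmt7 makes monomethylarginine only. In B cells Prmt1 and Prmt5 are known for roles in proliferation and in the germinal centre response, and Prmt5 works in a complex with its partner Wdr77, which is needed for full activity. The 8 genes described here were chosen by symbol from the 24902 symbols of a bulk RNA-seq count matrix, and 8 of 8 had a value in every library and passed the expression filter. Prmt8, a further family member, is not among them; it had a value in 5 libraries, with counts from 4 to 34.

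Splenic B cells were taken from 8 mice of strain C57BL/6N, by the labels, with terminal disease, the stage called early removal criteria (ERC). Eµ-PRMT5 mice (n = 4) carry the human PRMT5 coding sequence behind an immunoglobulin heavy chain promoter and the Eµ enhancer, with the end of the human β-globin gene, so that it is expressed in immature and mature B cells. Eµ-TCL1 mice (n = 1) carry the TCL1 oncogene, a model of chronic lymphocytic leukaemia (CLL), and Eµ-PRMT5/TCL1 mice (n = 3) come from a cross of both and carry both transgenes. The methods name C57BL/6J, not C57BL/6N, for the Eµ-TCL1 parents. Every mouse therefore carries at least 1 Eµ transgene, ages are not given for these libraries, and WT mice were not analysed here. The label of Eµ-PRMT5 mouse 2 carries the name that the methods give to a founder, and the founder lines of the other Eµ-PRMT5 mice are not given in the sources used here. The labels of Eµ-PRMT5 mice 3 and 4 carry animal numbers that recur in the histology, and are taken to name the same animals. For the former the paper describes large anaplastic lymphocytes with infiltrating histiocytes. For the latter it describes sheets of small lymphocytes, which it likens to CLL. The part of this difference in the levels given below was not tested. B cells were enriched with a pan-B isolation kit, which removes other cells and leaves B cells untouched.

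Levels are CPM, a gene's counts scaled to a fixed library total, after TMM scaling, which corrects for library size and composition. Counts on genes ranged from 3356297 in the Eµ-TCL1 mouse to 10252426 in Eµ-PRMT5 mouse 4. The same mice had the highest and lowest TMM factors, 1.16 and 0.859, so their levels coincide with extremes of depth and scaling. Markers of B cells were present in every library, but Eµ-PRMT5 mouse 4 stood apart. Cd79a, a chain of the B cell receptor, was at 411 CPM there and between 924 and 2115 CPM in the other 7 mice. The summed level of 7 B cell markers was 1780.4 CPM in this mouse and 2872 to 7077 CPM in the others, and none of these markers was at 0 there. Of markers of other cells, 4 erythroid ones summed to 338 CPM in this mouse and to between 24.2 and 235 CPM elsewhere, whereas its sums of 9 neutrophil (5326 CPM), 3 macrophage (397 CPM) and 5 T cell markers (112 CPM) lay inside the ranges of the other mice, at 424 to 9098, 133 to 702 and 60.6 to 327 CPM. Cd3g, at 95.1 CPM and highest in this mouse, made most of its T cell sum. Cd8b1 (1.84 CPM) and Cd28 (5.88 CPM) were lowest there, and Cd3d and Cd3e were at 2.65 and 6.57 CPM. Cd4 and Cd8a of T cells, and C1qa, C1qb, C1qc and Marco of macrophages, were not tested and are not in these sums. Cd5, which marks CLL-like B cells and by which the paper also gates T cells, was between 16.2 and 57.6 CPM. Eµ-PRMT5 mouse 3, at 56.3 CPM for Cd5, had the T cell sum of 327 CPM, against 60.6 to 112 CPM in the others. The part of T cells in its Cd5 level was not tested. In such bulk samples fewer cells of a type and less RNA per cell cannot be told apart. Several results that rest on Eµ-PRMT5 mouse 4 are given with and without it. Levels and shares per kb, fold changes of the complex genes and list medians include this mouse throughout.

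Prmt1 and Prmt5 were the most abundant family members when CPM was divided by the length of the exons (CPM per kb). Prmt1, the main type I enzyme, was highest with 39.0 ± 24.8 CPM per kb (SD, n = 8 mice), followed by Prmt5 with 32.4 ± 13.6. Prmt7 (18.7 ± 7.71) and Prmt2 (13.9 ± 6.10), a coactivator of nuclear receptors, came next. Prmt3, which methylates the ribosomal protein Rps2, measured 7.75 ± 2.41 CPM per kb, Prmt9, which methylates the splicing factor Sf3b2, 7.56 ± 2.85, and Carm1, a coactivator that methylates histone H3 and p300, 6.00 ± 1.46. Prmt6, a nuclear enzyme for histone H3, was lowest with 3.63 ± 2.26. Some neighbours in this order could not be separated. Prmt1 exceeded Prmt5 in 6 of 8 mice, Prmt7 exceeded Prmt2 in 5 of 8, Prmt3 exceeded Prmt9 in 6 of 8 and Carm1 exceeded Prmt6 in 6 of 8. Prmt5 lay above Prmt7, Prmt2 above Prmt3 and Prmt9 above Carm1 in 7 of 8 mice each. The order of the means was the same when the length of the principal transcript was used, a choice made after seeing the data. With that length, however, Prmt1 exceeded Prmt5 in 8 of 8 mice, and Prmt2 exceeded Prmt3 in only 5 of 8.

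**Figure D1:**
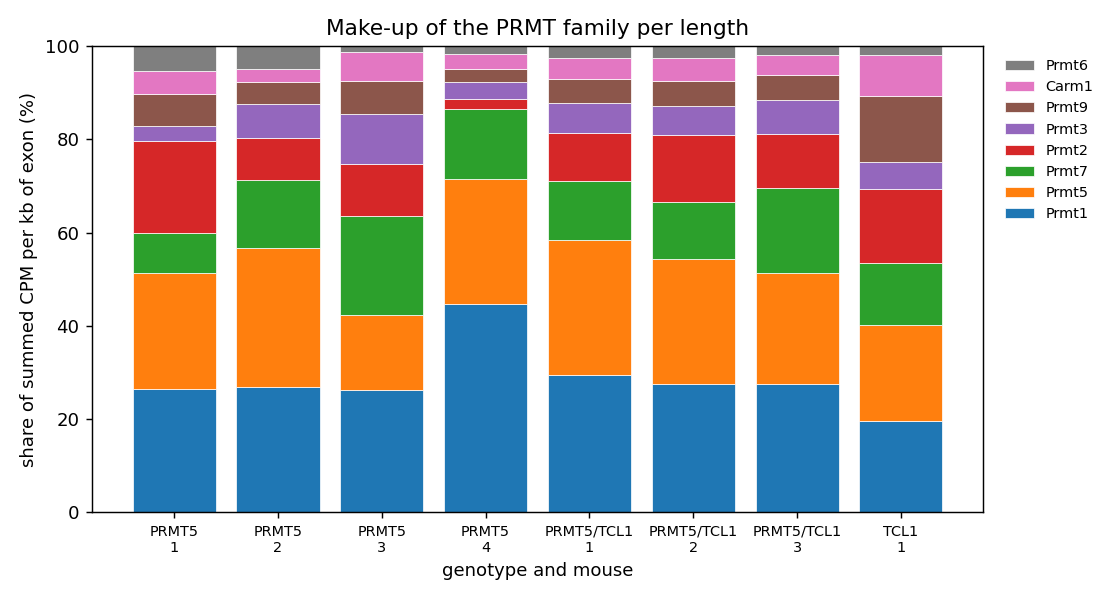
Stacked bars give the share of each gene in the summed CPM per kb of exon of the 8 PRMT genes (y axis, percent) in each mouse (x axis, genotype and mouse number). Prmt1, Prmt5 and Prmt7 together made 53.4% of the family in the Eµ-TCL1 mouse, the least, and 86.5% in Eµ-PRMT5 mouse 4, the most, and the Prmt9 and Carm1 segments were widest in the Eµ-TCL1 mouse.

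As a share of the family per length, Prmt1 took 28.5% ± 7.11 (SD, n = 8), Prmt5 24.7% ± 4.56, Prmt7 14.5% ± 3.89 and Prmt2 11.8% ± 5.25. Prmt1 was the most abundant member in 6 mice, and Prmt5 was in Eµ-PRMT5 mouse 2 and in the Eµ-TCL1 mouse. By the share of Prmt1, Prmt5 and Prmt7 together, the make-up was most uneven in Eµ-PRMT5 mouse 4, where Prmt1 alone made 44.6% and Prmt2 2.12%. It was most even in the Eµ-TCL1 mouse, where Prmt1 made 19.6%, its lowest share, and Prmt9 14.3% and Carm1 8.71%, their highest. All 8 genes together took between 0.0405% and 0.0782% of a library's counts, again with the maximum in Eµ-PRMT5 mouse 4.

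The genes are spread over 6 chromosomes of GRCm38, and 3 stretches just upstream of annotated starts are shown, for both leading members and for the member that stood out in the Eµ-TCL1 mouse. Each runs 5′ to 3′ on the gene's strand, is taken from the RefSeq promoter windows (GRCm38.p6) without any annotated exon, and has motif matches in capitals. Adjacent matches can run together, and in Prmt1 the last 3 adjoin or overlap. Prmt1 (chr7:44986569-44986670, minus strand) had 2 GC boxes, 1 CCAAT box, 1 TGACG core of the cAMP response element and 1 E-box. Prmt5 (chr14:54517526-54517720, minus strand) had 3 CCAAT boxes and 1 TGACG core, and Prmt9 (chr8:77549147-77549396, plus strand) 2 TGACG cores that overlap as a palindrome.
Prmt1: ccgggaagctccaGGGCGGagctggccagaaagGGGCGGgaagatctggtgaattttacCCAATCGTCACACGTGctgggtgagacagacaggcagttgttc
Prmt5: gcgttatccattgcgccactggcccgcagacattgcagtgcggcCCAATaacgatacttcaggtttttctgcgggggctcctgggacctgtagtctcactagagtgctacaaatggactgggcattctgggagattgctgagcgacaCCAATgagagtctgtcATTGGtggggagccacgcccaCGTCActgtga
Prmt9: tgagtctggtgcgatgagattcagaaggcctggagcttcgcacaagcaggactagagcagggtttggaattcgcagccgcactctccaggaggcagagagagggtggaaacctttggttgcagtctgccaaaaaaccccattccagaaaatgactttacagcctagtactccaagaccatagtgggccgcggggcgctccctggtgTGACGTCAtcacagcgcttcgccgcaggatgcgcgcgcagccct
Searched on both strands in the 250 bases upstream of the start, the E-box CACGTG occurred in 2 of 7 members with an entry (Prmt1 and Prmt3) and in 6.02% of 32851 windows. The GC box GGGCGG occurred in 4 members against 32.7% of windows, CCAAT in 4 against 33.8%, and TGACG in 4 (Prmt1, Prmt5, Prmt7 and Prmt9) against 17.8%. These matches are letters in a window and say nothing of binding.

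Prmt5, the mouse counterpart of the transgene, lies on chr14:54507187-54517525 (minus strand). It measured 128, 171, 62.7 and 235 CPM in Eµ-PRMT5 mice 1 to 4, 110, 115 and 126 CPM in Eµ-PRMT5/TCL1 mice 1 to 3, while the Eµ-TCL1 mouse had 79.5 CPM. The Eµ-PRMT5 mice spanned both ends of the range, and the double transgenic mice lay close together inside it. The deposited count of the Eµ-TCL1 mouse was 294 for each of Prmt5, Prmt7 and Prmt9, which gives these genes the same CPM there, and 12 symbols of that library held this count. No source says if transgene reads could be counted on mouse Prmt5, so this value does not check the transgene.

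Prmt1 (chr7:44975989-44986568, minus strand) measured 118, 133, 88.7 and 337 CPM in Eµ-PRMT5 mice 1 to 4. It measured 97.5, 103 and 126 CPM in the double transgenic mice, and the Eµ-TCL1 mouse had 65.7 CPM. Eµ-PRMT5 mouse 4 was 2.53 times the next highest mouse and the Eµ-TCL1 mouse was below all others. Prmt2 (chr10:76207222-76237865, minus strand) ran the other way in Eµ-PRMT5 mouse 4. It measured 87.1, 44.3, 37.2 and 15.8 CPM with PRMT5 alone, 33.0, 53.0 and 52.1 CPM with both transgenes and 52.7 CPM with TCL1 alone. Mouse 4 was the lowest of all 8 for Prmt2 and mouse 1 the highest, so the genotypes overlapped fully.

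Prmt9 (chr8:77549397-77581338, plus strand) measured 49.9, 38.9, 39.9 and 32.6 CPM with PRMT5 alone, 28.2, 32.9 and 41.3 CPM with both transgenes and 79.5 CPM with TCL1 alone. The Eµ-TCL1 mouse was 2.11 times the mean of the other 7, which overlapped between genotypes. Carm1 (chr9:21546894-21592623, plus strand) was also highest in the Eµ-TCL1 mouse. It measured 41.4 CPM there, against 32.1, 19.6, 29.4 and 34.9 CPM in Eµ-PRMT5 mice. Eµ-PRMT5/TCL1 mice had 21.3, 26.5 and 27.8 CPM. Exons of Yipf2 overlap those of Carm1 on the opposite strand by 1025 bases. Since no source says whether counting used strand, Carm1 values may hold reads of Yipf2.

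The remaining 3 members overlapped between genotypes. Prmt7 (chr8:106210936-106252794, plus strand) ranged between 67.2 and 204 CPM with PRMT5 alone and between 75.7 and 150 CPM with both transgenes, and was at 79.5 CPM with TCL1 alone. Prmt3 (chr7:49778346-49858265, plus strand) ranged between 25.2 and 64.3 CPM and between 37.7 and 58.5 CPM in the same order, and was at 33.5 CPM with TCL1 alone. Prmt6 (chr3:110246109-110250998, minus strand) measured 29.0, 30.4, 5.47 and 16.5 CPM with PRMT5 alone, 10.3, 11.4 and 10.6 CPM with both transgenes and 8.11 CPM with TCL1 alone. Prmt6 thus split the Eµ-PRMT5 mice, with 3 above every other mouse and mouse 3, on 24 counts, below every other mouse. C130013H08Rik overlaps Prmt6 exons on the opposite strand by 984 bases, and exons of Gm26786 and Smpd3 overlap those of Prmt7 by 268.

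**Figure D2:**
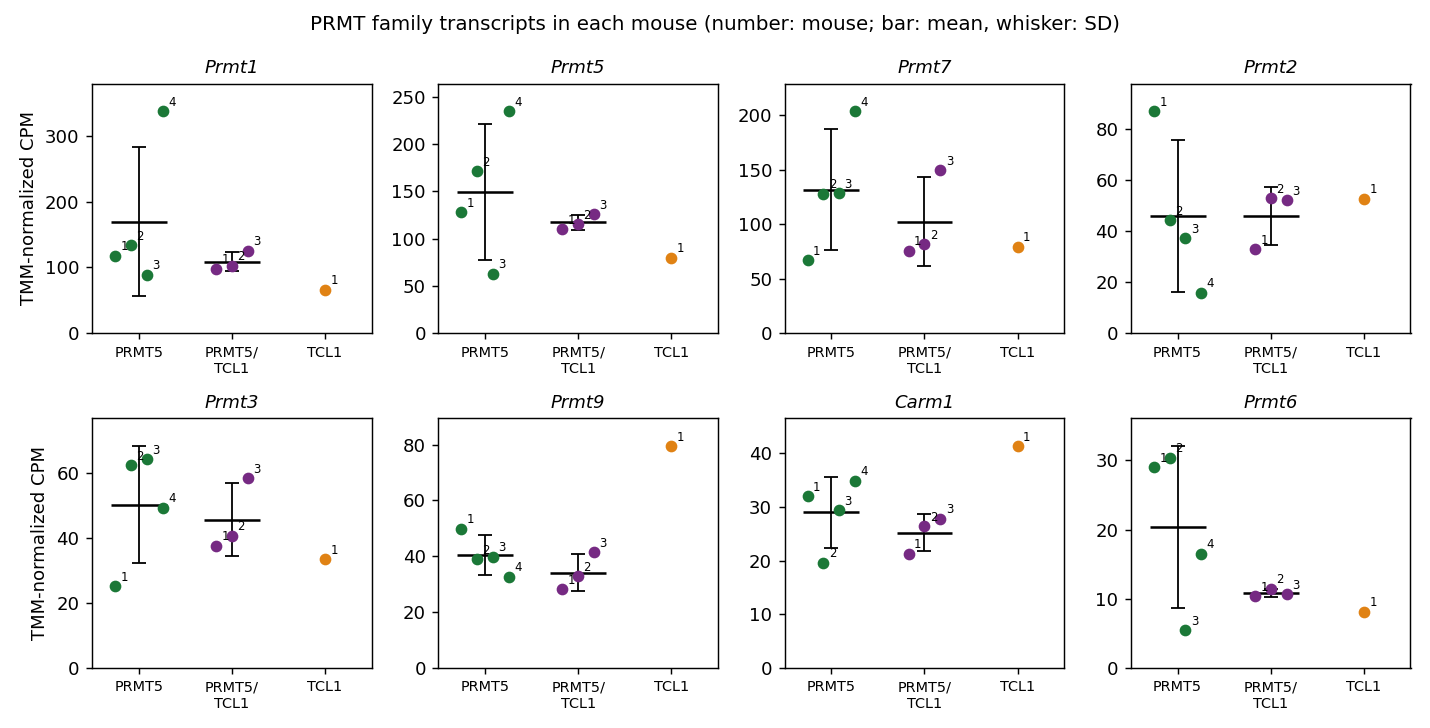
Points give TMM-normalized CPM (y axis, linear, starting at 0) of each PRMT gene in each mouse by genotype (x axis), numbered by mouse, with horizontal bars for the mean and whiskers for the SD of the replicated genotypes (n = 4 and n = 3). Eµ-PRMT5 mouse 4 is highest for Prmt1 (337 CPM), Prmt5 (235 CPM) and Prmt7 (204 CPM) and lowest for Prmt2 (15.8 CPM), and the single Eµ-TCL1 mouse is highest for Prmt9 and Carm1.

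Whether adding the TCL1 transgene to Eµ-PRMT5 went with another level of any PRMT was asked by setting Eµ-PRMT5/TCL1 against Eµ-PRMT5 mice. No member differed beyond the spread between mice. At an adjusted p under 0.05 in edgeR's quasi-likelihood test, 0 of 8 members were called, against 0.0% of the 13173 tested genes, and at an unadjusted p under 0.05, 0 of 8 against 2.17%. DESeq2 called 0 of 8 members and 4 genes in all at an adjusted p under 0.05. The ranges of both genotypes overlapped for 8 of 8 members, where 2.95% of tested genes showed no overlap. The estimates were below 0 for 7 of 8 members, with a median log2 fold change of -0.30 against -0.09 over all genes.

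The largest estimates belonged to Prmt6, at a log2 fold change of -0.91 (standard error 0.57), and Prmt1, at -0.64 (0.45). Prmt7 was at -0.36 (0.41), Prmt5 at -0.35 (0.41), Prmt9 at -0.24 (0.34), Carm1 at -0.20 (0.37) and Prmt3 at -0.14 (0.39). For Prmt2 both genotypes had the same mean, 46.1 ± 29.9 CPM (SD, n = 4) and 46.0 ± 11.3 CPM (SD, n = 3), with a standard error of 0.49 on the log2 fold change. All adjusted p-values of the members were 1 in edgeR's test. Without Eµ-PRMT5 mouse 4 the estimates shrank to -0.06 (0.30) for Prmt1, -0.05 (0.37) for Prmt5 and -0.07 (0.38) for Prmt7, while Prmt6 remained the lowest of the 8 estimates (standard error 0.61) and Prmt2 moved to -0.29 (0.40). Without Eµ-PRMT5 mouse 3 Prmt6 was at -1.23, with an unadjusted p of 0.0145 and an adjusted p of 0.769 in edgeR's test. It was then the 1 member of 8 at an unadjusted p under 0.05, against 5.89% of tested genes in that fit.

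The Eµ-TCL1 genotype had 1 mouse, so both comparisons with it only ask whether that mouse lay beyond the variation among mice of the other genotypes, which it is assumed to share. In Eµ-PRMT5 against Eµ-TCL1, 0 of 8 members were called by edgeR at an adjusted p under 0.05, against 0.0% of tested genes, and 0 of 8 at an unadjusted p under 0.05, against 6.78%. Prmt1 had the largest estimate, 1.37 on the log2 scale, with a standard error of 0.72 and an edgeR adjusted p of 0.709. It was 0.79 (0.45) without Eµ-PRMT5 mouse 4. Prmt6 followed at 1.33 (0.92), Prmt9 at -0.98 (0.46), Prmt5 at 0.91 (0.64), Prmt7 at 0.73 (0.63), Prmt3 at 0.59 (0.60), Carm1 at -0.51 (0.53) and Prmt2 at -0.20 (0.72). With Eµ-PRMT5 mouse 4 left out Prmt5 was at 0.60 and Prmt7 at 0.44. Without Eµ-PRMT5 mouse 3, 3 members (Prmt1, Prmt5 and Prmt6) were at an unadjusted p under 0.05, where 16.2% of tested genes were in that fit, and the smallest adjusted p of a member was 0.257 in edgeR's test.

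In Eµ-PRMT5/TCL1 against Eµ-TCL1, 0 of 8 members were called at an adjusted p under 0.05 (0.0% of tested genes), and 1 of 8, Prmt9, at an unadjusted p under 0.05 (6.09% of tested genes). Its estimate was -1.22 on the log2 scale with a standard error of 0.48 (edgeR, unadjusted p = 0.0258 and adjusted p = 0.778), lower in 3 of 3 double transgenic mice. The unadjusted p of Prmt9 rose above 0.05 in edgeR's test without Eµ-PRMT5/TCL1 mouse 1 (0.0770) or mouse 2 (0.0635). Carm1 was at -0.71 (0.54) and Prmt2 at -0.20 (0.74), and the other 5 members were above 0, from 0.37 (0.64) for Prmt7 to 0.72 (0.70) for Prmt1. Both comparisons share the Eµ-TCL1 mouse. It lay above all 7 other mice for 2 of 8 members (Prmt9 and Carm1), where it did so for 21.3% of tested genes, and below all 7 for 1 of 8 (Prmt1), against 14.2%. These shares were near those of all genes.

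**Figure D3:**
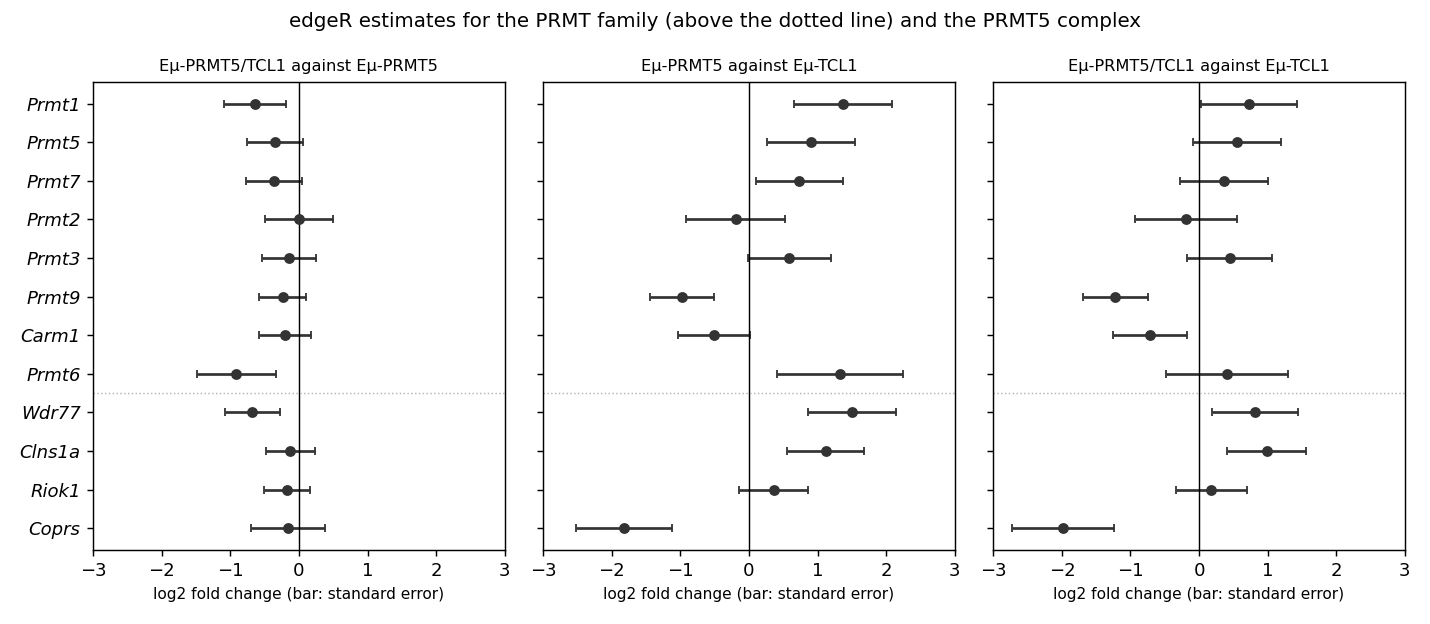
Points are edgeR log2 fold changes and bars their standard errors (x axis) for the 8 PRMT genes, above the dotted line, and 4 genes of the PRMT5 complex (y axis), in 3 comparisons of genotypes, the first genotype relative to the second. No gene shown passed an adjusted p of 0.05, and the estimates against the single Eµ-TCL1 mouse have the wider bars.

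Eµ-PRMT5 mouse 4 was the highest of 8 mice for 3 members (Prmt1, Prmt5 and Prmt7), where it was highest for 20.1% of tested genes, and the lowest for 1 (Prmt2), against 17.9%. In the same mouse Mki67, a marker of cycling cells, was at 806 CPM against 27.9 to 404 CPM in the others, and Top2a, a topoisomerase of dividing cells, at 617 CPM against 38.8 to 349. Of the 9 neutrophil markers, this mouse was the highest of all 8 for 3, at 640 CPM for S100a8, 435 CPM for S100a9 and 107 CPM for Lcn2. For Mpo it was at 997 CPM, below the 3498 and 1476 CPM of Eµ-PRMT5/TCL1 mice 1 and 2. The part of B cell share, of neutrophil RNA and of proliferation in the levels of Prmt1, Prmt5, Prmt7 and Prmt2 was not tested beyond the correlations that follow.

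Across the 8 mice, each member was set against the mean log2 CPM of 15 proliferation genes. Prmt2 had the strongest relation, with Pearson's r = -0.738 (exact permutation p = 0.0376, Benjamini-Hochberg adjusted p = 0.301 over the 8 members) and a rank correlation, Spearman's rho, of -0.524 (exact permutation p = 0.197). Prmt1 followed with r = 0.605 (exact permutation p = 0.111, adjusted p = 0.429) and rho = 0.238, then Prmt7 with r = 0.549 and rho = 0.548. Prmt5 had r = 0.356 and rho = 0.0952. None of the 8 relations passed after adjustment. Leaving out Eµ-PRMT5 mice 2 and 4, the 2 with the most extreme level of the list, r was -0.623 for Prmt2, 0.328 for Prmt1, 0.531 for Prmt7 and 0.248 for Prmt5. Without Eµ-PRMT5 mouse 4 alone r was -0.387 for Prmt2, -0.0868 for Prmt1 and -0.233 for Prmt5. The signs of Prmt1 and Prmt5 thus depended on which mice were included. Within genotypes, over deviations from the genotype means of 7 mice, r was -0.819 for Prmt2 (permutation p = 0.0363, adjusted p = 0.245) and 0.790 for Prmt1 (permutation p = 0.0629, adjusted p = 0.245). It was 0.670 for Prmt7, 0.600 for Carm1, 0.380 for Prmt5, 0.153 for Prmt3, -0.322 for Prmt6 and -0.473 for Prmt9, none past adjustment. With Eµ-PRMT5 mouse 4 left out of these deviations as well (n = 6), r was -0.326 for Prmt2 (permutation p = 0.512, adjusted p = 0.683), -0.469 for Prmt1 (permutation p = 0.331, adjusted p = 0.683) and -0.717 for Prmt5 (permutation p = 0.0931, adjusted p = 0.372). Deviations were permuted across genotypes, although those within a genotype depend on each other through its mean. The p-values within genotypes are therefore approximate, not exact.

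**Figure D4:**
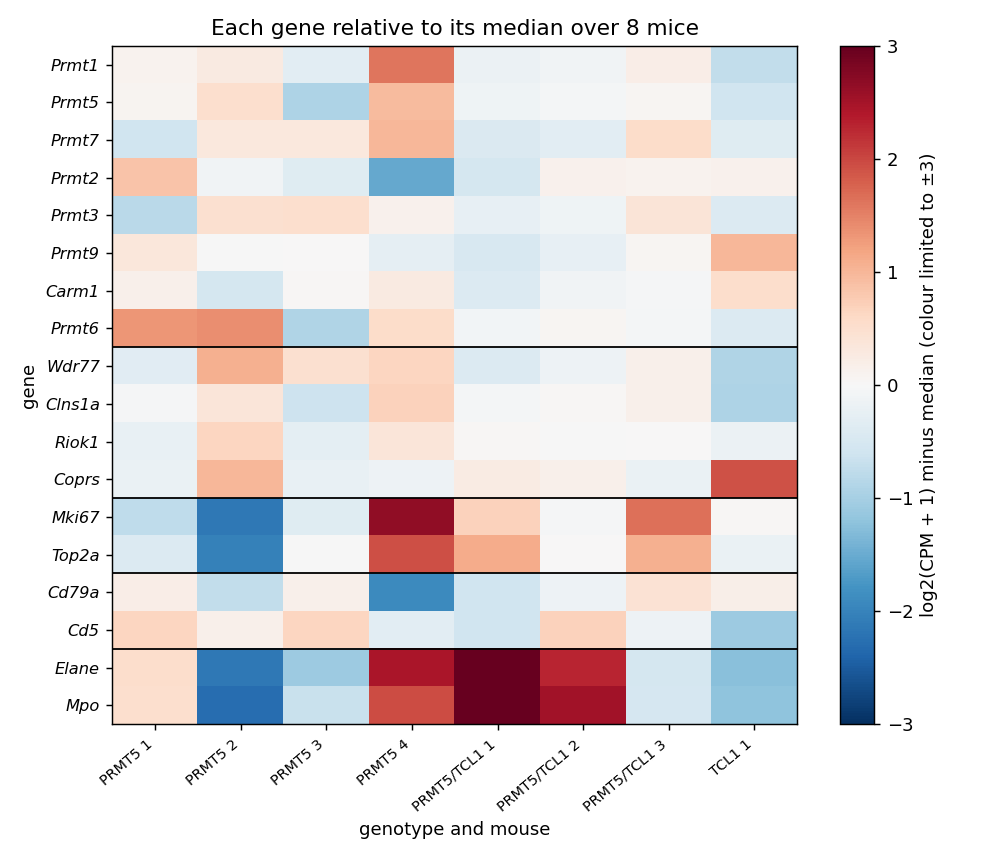
Colours give log2(CPM + 1) minus the gene's median over 8 mice, limited to ±3, for each mouse (x axis) and gene (y axis), with lines between PRMT genes, PRMT5 complex, proliferation, B cell and neutrophil genes. In Eµ-PRMT5 mouse 4, Prmt1, Prmt5, Prmt7, Mki67 and Top2a are above their medians and Prmt2 and Cd79a below, and Coprs and Prmt9 are highest in the Eµ-TCL1 mouse.

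The PRMT5 complex was measured through 4 partner genes. Wdr77 binds Prmt5 directly, Clns1a and Riok1 are adaptors that bring in spliceosomal and ribosomal substrates, and Coprs directs the complex to histones. Wdr77 measured 29.6, 80.3, 53.6 and 59.4 CPM with PRMT5 alone, 28.4, 34.2 and 42.0 CPM with both transgenes and 19.7 CPM with TCL1 alone. Its highest mouse, Eµ-PRMT5 mouse 2, was not the highest for Prmt5. Gm42890 overlaps Wdr77 exons by 1389 bases on the same strand, which makes these counts uncertain. The ratio of Prmt5 to Wdr77 counts was 4.32, 2.13, 1.17 and 3.95 in Eµ-PRMT5 mice, 3.88, 3.36 and 3.00 in Eµ-PRMT5/TCL1 mice and 4.03 with TCL1 alone. On the log2 scale the mean ratio was 0.41 higher in the double transgenic mice than with PRMT5 alone, with a two-sided exact permutation p of 0.514 over 35 splits, of which the smallest possible p is 0.0286. The difference was 0.036 without Eµ-PRMT5 mouse 3, whose ratio was the lowest, and 0.66 and 0.62 without Eµ-PRMT5 mice 1 and 4. The double transgenic ratios fell within the wider range of the Eµ-PRMT5 mice.

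Clns1a measured 165, 219, 110 and 273 CPM with PRMT5 alone, 164, 175 and 189 CPM with both transgenes and 88.4 CPM with TCL1 alone. Riok1 ranged from 62.2 to 120 CPM over all 8 mice. Coprs was low, at 5.07, 12.8, 5.02 and 5.30 CPM in Eµ-PRMT5 mice. It was at 7.21, 6.72 and 5.07 CPM in Eµ-PRMT5/TCL1 mice and reached 25.1 CPM in the Eµ-TCL1 mouse. Wdr77 and Clns1a were thus lowest and Coprs highest in that mouse, which was lowest for 14.2% and highest for 21.3% of tested genes. Against it, Eµ-PRMT5 mice differed on the log2 scale by 1.50 (standard error 0.64) for Wdr77, 1.12 (0.57) for Clns1a and -1.83 (0.70) for Coprs, each with an edgeR adjusted p of 0.709. Eµ-PRMT5/TCL1 mice had 0.82 (0.63), 0.99 (0.58) and -1.99 (0.74). Between the replicated genotypes Wdr77 was at -0.68 (0.40), and 0 of 4 genes were at an unadjusted p under 0.05, against 2.17% of tested genes.

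Over 7 lists with 48 genes of the pathway (the complex, S-adenosylmethionine metabolism, methylarginine readers, Prmt1 partners and substrates of 3 groups of PRMTs), no gene passed an adjusted p of 0.05 in any of the 3 comparisons in edgeR's test. In Eµ-PRMT5/TCL1 against Eµ-PRMT5, 0 of 48 were at an unadjusted p under 0.05, and the median log2 fold change was -0.13 against -0.09 over all genes. Against the Eµ-TCL1 mouse, an unadjusted p under 0.05 was reached by 5 genes above 0 and 1 below in the comparison of Eµ-PRMT5, where 6.78% of all tested genes reached it, 258 above 0 and 635 below. In that of Eµ-PRMT5/TCL1 it was reached by 4 above and 1 below, against 6.09% of all tested genes, 231 above and 571 below. Substrates of Prmt5 and Prmt9 made 3 of the 6 and 4 of the 5, and the genes named next were chosen after their values were seen. The Sm protein genes Snrpd1 and Snrpd3, whose products form the core of spliceosomal particles, had 14.1 and 49.5 CPM with TCL1 alone. With PRMT5 alone Snrpd1 measured 78.0 ± 65.0 CPM (SD, n = 4), and with both transgenes 57.3 ± 12.7 CPM (SD, n = 3). Without Eµ-PRMT5 mouse 4 the PRMT5 alone value of Snrpd1 was 46.4 ± 18.1 CPM (SD, n = 3). Snrpd3 measured 167 ± 109 and 168 ± 17.9 CPM, and 115 ± 35.7 CPM with PRMT5 alone when mouse 4 was left out. Rps10, a ribosomal protein gene with many near-identical copies in the genome, measured 161 ± 71.1 and 169 ± 23.5 CPM against 56.0 CPM. With PRMT5 alone it was at 126 ± 16.9 CPM when mouse 4 was left out. Srm, which makes spermidine, measured 185 ± 143 CPM with PRMT5 alone (128 ± 105 CPM without mouse 4) against 32.2 CPM with TCL1 alone. E2f1, a cell cycle factor that PRMT5 methylates, measured 8.41 ± 4.03 CPM in Eµ-PRMT5, 18.5 ± 3.43 CPM in Eµ-PRMT5/TCL1 and 3.79 CPM with TCL1 alone, all low levels. The remaining genes at that threshold were Wdr77 and Coprs.

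The list of 8 substrates of Prmt5 and Prmt9 had a median log2 fold change of 1.15 in Eµ-PRMT5 and 1.32 in Eµ-PRMT5/TCL1 against the Eµ-TCL1 mouse, where the medians of all genes were 0.04 and -0.07. For the 9 genes of S-adenosylmethionine metabolism the medians were 0.75 and 0.59, for the 12 substrates of Prmt1 and Prmt3 0.32 and 0.35, and for the 6 substrates of Carm1 0.00 and -0.33. The 4 complex genes had 0.74 and 0.50, the 5 methylarginine readers 0.56 and 0.32, and the 4 Prmt1 partners lay below 0, at -0.17 and -0.37. Both columns of medians share the same Eµ-TCL1 mouse. The 15 proliferation genes had medians of 0.96 and 1.02 in the same comparisons, with 14 of 15 above 0 in each. Markers of other cell types also lay above 0 against that mouse. The medians were 2.20 and 2.60 for 9 neutrophil markers (9 of 9 above 0 in each), 2.12 and 1.77 for 4 erythroid markers and 1.13 and 1.91 for 3 macrophage markers, but 0.10 and -0.15 for 5 T cell markers. Those of 7 B cell markers were 0.12 and 0.08. The part of these differences in the medians of the pathway lists was not tested.

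The spread between mice of the same genotype differed among the members. The biological coefficient of variation ran from 0.357 for Prmt9 and 0.382 for Carm1 to 0.476 for Prmt2 and 0.524 for Prmt6, beside a common value of 0.480 over tested genes. Among genes of like mean level, Prmt9 was at percentile 8.69 and Carm1 at 13.1, while Prmt2 was at 82.2 and Prmt1 at 81.2. Prmt9 and Carm1 were thus the steadiest members within genotypes, and the ones highest in the Eµ-TCL1 mouse.

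The genes most like Prmt5, by Pearson's r of log2 CPM over the 8 mice, were Wdr61 (r = 0.988), Sf3a3, Gm9769, Smu1 and Bsg (r = 0.966 for the fifth). Without Eµ-PRMT5 mouse 4 Wdr61 had r = 0.992. Wdr77 was not among them. Among the genes most like Prmt1 were Ssrp1 (r = 0.988), Tardbp, Ddx39 and Mrpl20 (r = 0.978), which fell to between 0.905 and 0.946 without Eµ-PRMT5 mouse 4. Those most like Carm1 were Pip5k1b (r = 0.947), Zfpm1, Xndc1, Txndc15 and Coil (r = 0.915). These are descriptions over 8 libraries that share depth and composition differences, and they were picked as the highest of 13173 tested genes.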

How the data were processed

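Bulk RNA-seq of splenic B cells from 8 mice at ERC was used. The deposited values are raw read counts for each gene symbol, which the authors neither pooled nor normalized. The methods give low-input cDNA amplification and the CLEAR workflow, a filter for reliably quantified transcripts, whereas the labels describe a stranded mRNA kit and greater depth. The submitters' processing notes name GRCm38, Subread, featureCounts and DESeq2 1.20.0. For libraries of the stranded kit the methods name STAR and an Ensembl annotation, and for low-input ones neither. Which of these applies here, and the strand setting, are not given in the sources used here.

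In the matrix 36919 cells hold NA, which was not read as 0, so 14072 symbols with a value in every library entered, and the expression filter of edgeR kept 13173. edgeR 4.0.16 (R 4.3.3) fitted TMM-scaled counts in 1 quasi-likelihood model over the 3 genotypes, with Benjamini-Hochberg adjustment over all tested genes. The code was tested on simulated data. Single values were compared by exact permutation with scipy 1.17.1 (Python 3.11.15). Lengths and positions are from GENCODE vM21, as the union of exons, and sequences are from RefSeq. Log2 CPM used a prior count of 2.

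Groups came from the genotype in the labels. The members and lists were chosen with earlier results of these data known. Named genes are the members, the complex genes, list genes past a threshold, defining markers, and the 5 genes most like Prmt5, Prmt1 and Carm1. A few of these genes are not reported here. Mice are the replicates. The p-values of edgeR's test set a difference against the spread between mice within the replicated genotypes, since Eµ-TCL1 had 1 mouse. Library totals of 3356297 to 10252426 counts leave Prmt6 with 24 to 192 counts per mouse, and the other members with at least 124. Alternatives were DESeq2 1.42.0, scaling by library size only or by the upper quartile, a minimum of 10 counts in every library or no filter, a fit of only the groups compared, NA counted as 0, each mouse left out, and the replicate number as a block.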

Additional observations from a re-analysis of the deposited data

Results flagged for a closer look

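Coprs in Eµ-PRMT5 mouse 2 stood apart from the other 3 Eµ-PRMT5 mice at 12.8 CPM, with a gap of 0.963 of the group's range to its nearest neighbour. Mki67 in Eµ-PRMT5 mouse 4 stood apart at 806 CPM, with a gap of 0.910 of the range. Both gaps exceeded Dixon's critical value for 4 samples. This was asked of 15 genes in the Eµ-PRMT5 group, where chance gives about 0.75 such values, or 1 in 20. No PRMT gene stood apart in this way. Prmt1 in Eµ-PRMT5 mouse 4, at 2.53 times the next highest mouse, fell only just short of the critical value.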

How the results depend on the processing

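The count of members and of pathway genes called at an adjusted p under 0.05 was 0 in each comparison under every alternative run. Of 344 member fold changes under other settings, 332 kept their sign and 12 changed it, each with both values inside 1 standard error of 0. For Eµ-PRMT5/TCL1 against Eµ-PRMT5 these were Prmt2 with DESeq2 (-0.0070), with some mice left out (as low as -0.29) and with the replicate block (-0.21), and Prmt5 with the block (0.0580). Prmt2 kept its sign without Eµ-PRMT5 mouse 1, at 0.53 (standard error 0.43). Against Eµ-TCL1, Prmt2 in Eµ-PRMT5 changed with NA counted as 0 (0.0593) and without Eµ-PRMT5 mouse 4 (0.0916, within -0.60 to 0.0916 over mice left out), and in Eµ-PRMT5/TCL1 Prmt2 with NA counted as 0 (0.10) and Prmt7 without Eµ-PRMT5/TCL1 mouse 3 (-0.0134, within -0.0134 to 0.54). The cause was not tested.

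At an unadjusted p under 0.05, members called in Eµ-PRMT5/TCL1 against Eµ-PRMT5 numbered 0 to 1 with mice left out, against 1.13% to 5.89% of all genes. In Eµ-PRMT5 against Eµ-TCL1 they numbered 1 with DESeq2 (Prmt1), 1 with upper-quartile scaling and 1 with library size only (Prmt9). Of all genes, 8.55%, 6.29% and 7.0% passed under these settings in turn. With mice left out, members numbered 0 to 3, where 4.59% to 16.2% of all genes passed. In Eµ-PRMT5/TCL1 against Eµ-TCL1 the count was 0 with NA counted as 0 (3.61% of all genes), and 0 to 1 with mice left out (3.07% to 9.29%). Pathway genes in Eµ-PRMT5/TCL1 against Eµ-PRMT5 numbered 1 with each of DESeq2, upper-quartile scaling, at least 10 counts and only the groups compared. Of all genes, 2.99%, 1.91%, 2.07% and 2.09% passed there in turn. The pathway count was 2 with the replicate block (6.58% of all genes) and 0 to 3 with mice left out (1.13% to 5.89%). In Eµ-PRMT5 against Eµ-TCL1 pathway genes numbered 13 with DESeq2, 3 with library size only, 2 with only the groups compared (8.55%, 7.0% and 3.01% of all genes) and 5 to 11 with mice left out (4.59% to 16.2%). In Eµ-PRMT5/TCL1 against Eµ-TCL1 they numbered 8, 15 and 3 with DESeq2, only the groups compared and NA counted as 0 (7.06%, 18.1% and 3.61% of all genes), and 0 to 9 with mice left out (3.07% to 9.29%).

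Relations with proliferation changed sign without Eµ-PRMT5 mouse 4 for Prmt1 (-0.0868), Carm1 (-0.0480) and Prmt5 (-0.233), and over deviations from genotype means without that mouse for Prmt1 (-0.469), Prmt5 (-0.717) and Prmt9 (0.138), alternatives chosen after seeing the data. The share of Prmt5 in the family was 19.6% with principal transcript length. The replicate numbers were not taken as pairs, since deviations of same-numbered mice correlated at 0.0213, 0.106 and 0.162. At an unadjusted p under 0.05 in edgeR's test the block gave 495 higher and 331 lower genes, against 126 and 160 in the main fit. These fits differ in their mice, since the block used only those numbered 1 to 3 in the replicated genotypes. Leaving out Eµ-PRMT5 mouse 4 with no block already gave 392 higher and 368 lower genes. The effect of the block alone was not tested. The difference in the Prmt5 to Wdr77 ratio was 0.036 to 0.66 with mice left out and 0.62 with the block. Under 8 of its 9 alternatives the design did not allow a p under 0.05. With scaling by library size only, all genes shifted to a median of -0.21 against Eµ-TCL1 in Eµ-PRMT5, from 0.04. With 1 Eµ-TCL1 mouse and up to 192 counts for Prmt6, precision is limited by the number of mice.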
